A study of Rattus norvegicus with 54 samples.

Results

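The genes described here are the 3 ligands of the transforming growth factor beta family, Tgfb1, Tgfb2 and Tgfb3, the signalling receptors Tgfbr1 and Tgfbr2, the latent binding proteins Ltbp1, Ltbp2, Ltbp3 and Ltbp4, and the TGF-beta induced matrix gene Tgfbi. They were taken by gene symbol, 10 of the 19852 genes that had a probe set with a single symbol, and each of the 10 had 1 probe set on the array. They were chosen by their signals over all 18 groups, so those values are given as a description, without a p-value. A member is called when its adjusted p was at most 0.05 and its fold was 1.2 or more, and the count of members called stands beside the share of all tested probe sets that passed the same limits.

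The 54 arrays came from naive rats and from rats with EAE, short for experimental autoimmune encephalomyelitis, in which an immune attack on myelin inflames brain and cord. Neural progenitor cell cultures, from Dark Agouti rats, were grown from the subventricular zone (SVZ) of the forebrain and from cervical, thoracic and caudal spinal cord. Undifferentiated cultures were taken after the second passage and differentiated cultures after 5 further days of differentiation, while SVZ biopsies, whose strain is not labelled, were not cultured. Each combination of region, stage and disease state had 3 arrays, in 18 groups, and neither a transgene nor a drug was named in the labels. The labels give no age and no account of how EAE was induced, and they do not say whether replicates were separate animals or cultures. The number of arrays limits the precision of every value, and the spread between replicates may be technical.

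TGF-beta is secreted as a latent complex in which the propeptide stays bound to the ligand and is usually linked to a latent binding protein. LTBP1, LTBP3 and LTBP4 can carry the latent ligand to the extracellular matrix, whereas LTBP2 does not bind it and is a microfibril protein. Released ligand brings the type II receptor TGFBR2 and the type I receptor TGFBR1 together, which leads to phosphorylation of SMAD2 and SMAD3. In the nervous system the pathway is known for restraining the growth of neural progenitors and for its part in glial scars and in the biology of microglia.

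The promoters of Ltbp1 and Ltbp4 are shown because these genes had the largest opposite log2 differences between EAE and naive cultures of the undifferentiated caudal cord among the 10. Both windows run from 250 bases before to 50 bases after the RefSeq gene start in assembly GRCr8, on the minus strand. That of Ltbp1 is chr6:26177252-26177551 and that of Ltbp4 is chr1:91759758-91760057. Capitals mark the cyclic AMP response element in Ltbp1 and the GC boxes, read on both strands, in Ltbp4.
Ltbp1: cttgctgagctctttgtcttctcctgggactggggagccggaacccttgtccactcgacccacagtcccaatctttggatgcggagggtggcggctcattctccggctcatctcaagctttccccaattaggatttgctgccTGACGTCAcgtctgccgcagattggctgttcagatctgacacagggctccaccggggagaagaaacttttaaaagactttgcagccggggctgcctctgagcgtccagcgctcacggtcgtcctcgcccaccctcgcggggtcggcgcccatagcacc
Ltbp4: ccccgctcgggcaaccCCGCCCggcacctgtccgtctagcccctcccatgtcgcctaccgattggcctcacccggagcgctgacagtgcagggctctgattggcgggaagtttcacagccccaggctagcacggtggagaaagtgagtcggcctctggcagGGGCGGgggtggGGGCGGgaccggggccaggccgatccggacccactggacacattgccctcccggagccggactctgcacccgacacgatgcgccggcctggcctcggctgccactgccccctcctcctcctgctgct
The Ltbp1 window held the element TGACGTCA with its first base at position -108, and 1.83% of the 33469 rat promoter windows of this length held it. The Ltbp4 window held the GC box GGGCGG 3 times, with first bases at -234, -89 and -77, the first of these on the other strand, and 33.1% of all windows held it at least once. The GC content was 60% in Ltbp1 and 71% in Ltbp4. The other motifs, searched on both strands, were found in neither window. The AP-1 motif TGANTCA was present in 7.33% of all windows and the TATA box, written TATAAA, in 14.2%. The palindromic Smad box GTCTAGAC was present in 0.197% of windows and the CAGA box, written CAGACA, in 21.1%. A match is a description of letters and was not tested as a binding site.

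Several arrays stood apart from their groups. The mean correlation of an array with the other 2 of its group was between 0.783 and 0.994, and it was below 0.96 for at least 1 array of 5 naive culture groups. Among the undifferentiated naive cord cultures, replicate 3 from the cervical segment and replicates 1 and 3 from the thoracic segment had the highest fibroblast scores of the undifferentiated cultures, between 10.5 and 11.2. A fibroblast score is the mean log2(signal + 16) of 10 genes, among them the collagen genes Col1a1 and Col3a1. Signals of Col1a1 on these arrays were 4990 in the cervical culture and 6321 and 6007 in the thoracic ones, against 48.4 on thoracic naive replicate 2. The progenitor gene Sox2 was 497 on the cervical array and 1300 and 1406 on the thoracic ones, against 2471 on thoracic naive replicate 2. Summed signals of 14 microglia and macrophage genes were 2462 to 9793 in undifferentiated EAE cord cultures and 180 to 586 in naive cord cultures, while in undifferentiated SVZ cultures they were 153 to 200. Csf1r, the receptor that microglia depend on, was between 3.72 and 11.8 on the 6 undifferentiated SVZ arrays. Fewer cells of a type and less RNA per cell cannot be told apart in these bulk samples, and the part of either marker list in the results that follow was not tested. Naive and EAE arrays did not overlap for 22.3% of tested probe sets in undifferentiated SVZ cultures, 23.1% in cervical, 12.6% in thoracic and 37.4% in caudal ones. These shares were 28.6%, 10.3%, 18.9% and 10.8% in differentiated cultures, in the same order, and 7.65% in biopsies. Of the 10 genes, the number without overlap was 1, 4, 2 and 8 in the undifferentiated cultures, 1, 1, 1 and 4 in the differentiated cultures and 1 in the biopsies. Unlike the shares, these numbers include genes that were not tested, such as Tgfbi in undifferentiated caudal cultures. The genes were chosen on these signals, so nothing is read from the numbers.

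**Figure D1:**
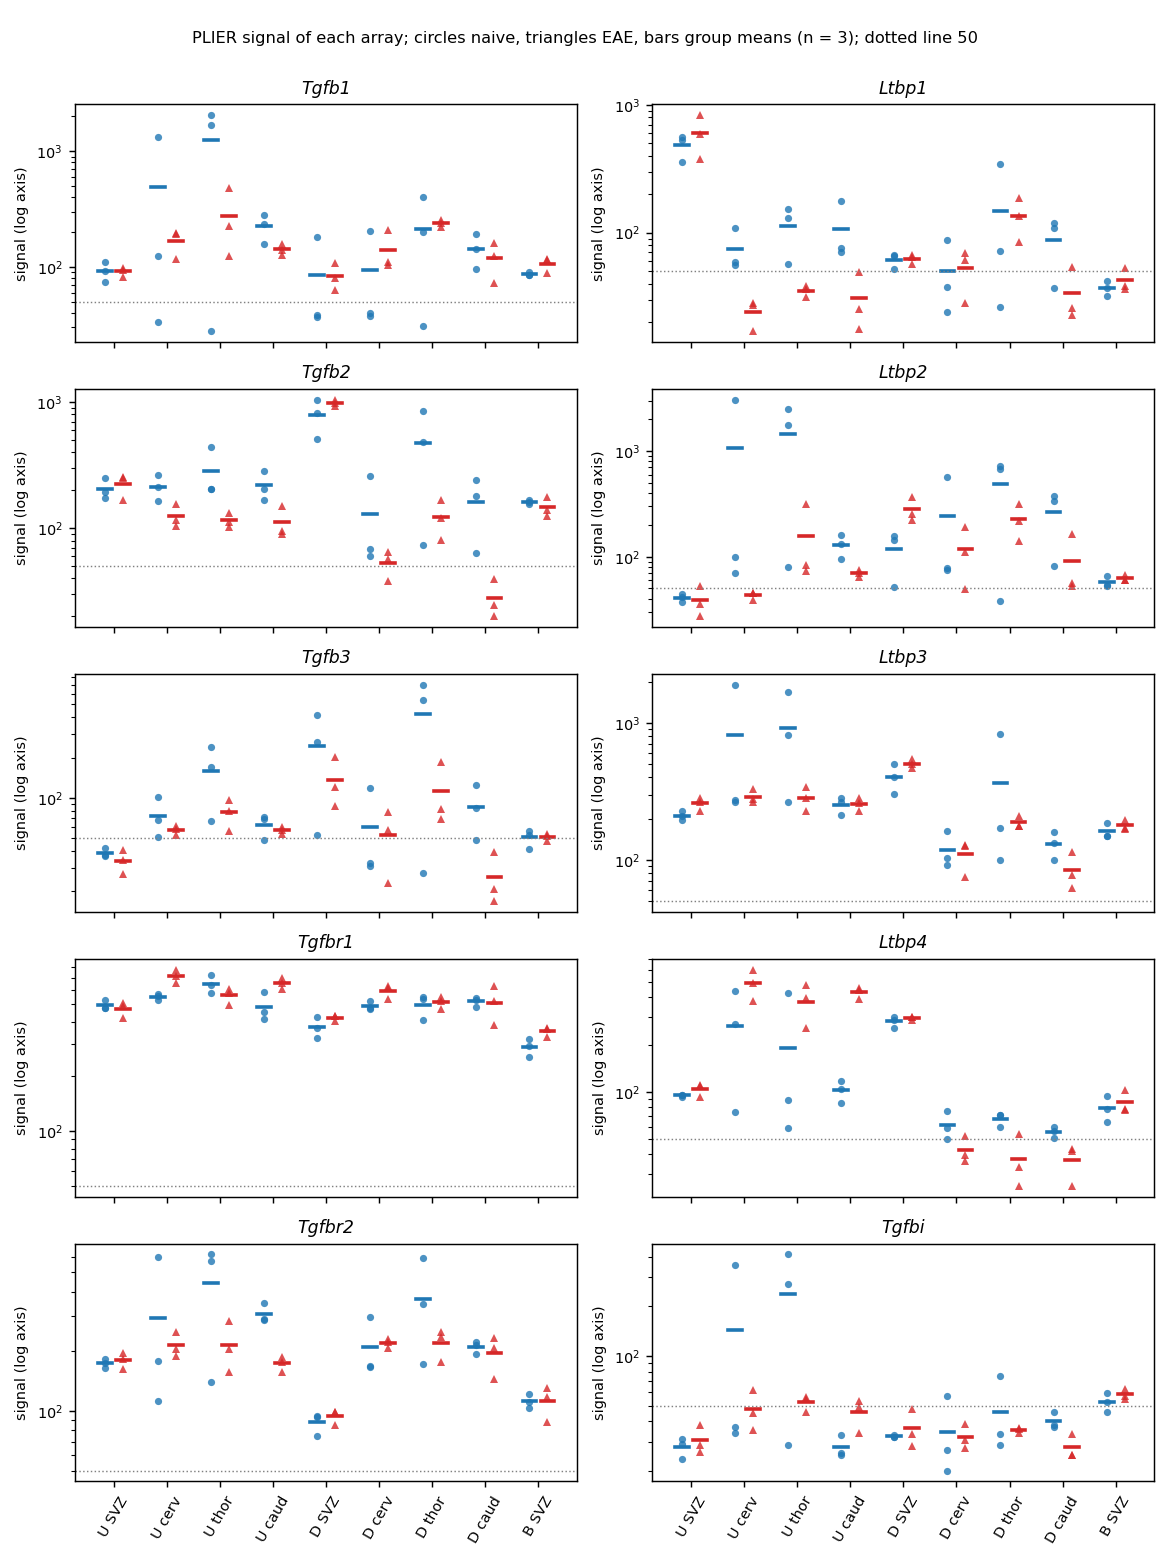
Signals of the 10 genes on every array, on a log axis, for undifferentiated (U) and differentiated (D) cultures and biopsies (B) of each region, with naive arrays as circles, EAE arrays as triangles and group means (n = 3) as bars. Tgfb2 was brightest in differentiated SVZ cultures and Ltbp1 in undifferentiated SVZ cultures, and naive cord groups spread most for Tgfb1, Ltbp2, Ltbp3 and Tgfbi.

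Tgfb1, the isoform best known from immune cells and wound repair, varied most between replicates of the undifferentiated naive cord cultures. Its signals were 125, 33.3 and 1322 in cervical naive cultures and 116, 192 and 197 in cervical EAE cultures. In thoracic cultures they were 1675, 27.7 and 2050 when naive and 124, 225 and 479 with EAE. The highest values were those of the 3 arrays with high fibroblast scores, and naive and EAE arrays overlapped in both regions. In caudal cultures Tgfb1 was 159, 234 and 279 when naive and 158, 128 and 140 with EAE. The caudal groups did not overlap, with a log2 difference of -0.58 ± 0.19 (SE), but Tgfb1 was not called. Undifferentiated SVZ cultures had 92.1 ± 18.7 (SD, n = 3) when naive and 91.4 ± 8.31 with EAE, and the log2 difference was 0.00 ± 0.13. After differentiation the group means of Tgfb1 lay between 84.1 and 239, and naive and EAE arrays overlapped in every region. Over the 18 groups, no neighbours in the order of Tgfb1 means were separated by more than their spread.

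Tgfb2, the isoform known from neurons, glia and the embryo, was highest in differentiated SVZ cultures and lowest in differentiated caudal EAE cultures. In differentiated SVZ cultures its signals were 1041, 823 and 511 when naive and 1036, 984 and 935 with EAE. Undifferentiated SVZ cultures had 194, 252 and 173 when naive and 255, 252 and 169 with EAE, so that the stages did not overlap. In SVZ biopsies the signals were 169, 157 and 161 when naive and 126, 176 and 140 with EAE.

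In undifferentiated cord cultures Tgfb2 was lower with EAE in each of the 3 segments, with no overlap. Cervical signals were 163, 212 and 267 when naive and 156, 104 and 117 with EAE. Thoracic signals were 443, 207 and 205 when naive and 112, 102 and 133 with EAE. Caudal signals were 285, 206 and 168 when naive and 90.9, 151 and 95.1 with EAE. The log2 differences were -0.69 ± 0.23 in cervical, -1.11 ± 0.31 in thoracic and -0.87 ± 0.22 in caudal cultures, and only the caudal one was called. In SVZ cultures the log2 difference was 0.11 ± 0.17. In differentiated caudal cultures Tgfb2 was 244, 182 and 63.2 when naive and 24.4, 20.1 and 39.7 with EAE, and the EAE arrays were below the signal limit of 50. This difference of -1.88 ± 0.32 was called and was the largest difference of Tgfb2 between EAE and naive arrays. It was not called after quantile or 75th percentile scaling, with log2(signal + 1), without the signal filter, by the methods' t-test, with all 18 groups in the fit, or without EAE replicate 2. Without any 1 of the naive replicates too few arrays were above 50 for Tgfb2 to be tested. The log2 differences in differentiated cervical and thoracic cultures, -0.83 ± 0.48 and -1.34 ± 0.79, came with overlapping arrays.

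Tgfb3, which is known from palate and lung development, was dim in undifferentiated SVZ cultures, with 37, 36.7 and 41.9 when naive and 40.8, 34.1 and 26.7 with EAE. It was above 50 on 37 of the 54 arrays. Its highest mean, 424 ± 352 (SD, n = 3) in differentiated thoracic naive cultures, rested on replicates 1 and 3 with 544 and 701, against 27.5 for replicate 2. Differentiated SVZ naive cultures also spread widely, with 414, 260 and 52.8. Naive and EAE arrays of Tgfb3 overlapped in all 4 undifferentiated culture comparisons and in the biopsies, and Tgfb3 was called in none of the EAE comparisons in which it was tested.

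Ltbp1, which anchors latent ligand to matrix, was brightest in undifferentiated SVZ cultures. There its signals were 354, 562 and 533 when naive and 586, 827 and 375 with EAE. The next group mean was 148, in differentiated thoracic naive cultures, where replicate 1 reached 344, still below the lowest of the undifferentiated SVZ arrays. After differentiation SVZ cultures had 65.8, 67.4 and 51.8 when naive and 56.8, 66.7 and 64 with EAE, and biopsies had between 31.9 and 52.5. In undifferentiated cord cultures Ltbp1 was lower with EAE in every segment. Cervical signals were 55.4, 59.3 and 110 when naive and 27, 28.3 and 16.9 with EAE. Thoracic signals were 130, 57 and 152 when naive and 31.4, 36.3 and 38 with EAE. Caudal signals were 177, 70.9 and 75.3 when naive and 25.5, 49.7 and 17.8 with EAE. The groups did not overlap in any of the 3 segments, and all 9 EAE arrays were below 50. The log2 differences were -1.14 ± 0.26, -1.25 ± 0.32 and -1.35 ± 0.31 in this order, and the caudal one was called. In SVZ cultures the difference was 0.25 ± 0.26 with overlapping arrays. The difference between cord and SVZ in the EAE effect was -1.50 ± 0.42 and was not called.

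Ltbp2, the microfibril protein, had its highest signals on the naive cord arrays with high fibroblast scores. Its signals were 100, 70.7 and 3047 in undifferentiated cervical naive cultures and 1782, 79.1 and 2496 in thoracic naive cultures. With EAE they were 38.8, 45.5 and 45.2 in cervical and 74, 84.2 and 314 in thoracic cultures. The cervical groups did not overlap and the thoracic ones did, with log2 differences of -2.41 ± 1.31 and -2.39 ± 1.26, and neither was called. In caudal cultures Ltbp2 was 95.2, 131 and 162 when naive and 63.9, 69.9 and 75.3 with EAE, a called difference of -0.74 ± 0.18. Undifferentiated SVZ cultures were mostly below 50, and their 6 arrays overlapped. In differentiated SVZ cultures Ltbp2 was 159, 143 and 52 when naive and 367, 220 and 256 with EAE. These arrays did not overlap, and the difference of 1.24 ± 0.38 was not called with all arrays but was called without naive replicate 3. Across the 18 group means the Pearson correlation of Ltbp2 with the fibroblast score was 0.877, the highest of the 10 genes. The group means share culture regions and stages, so that this value is a description.

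**Figure D2:**
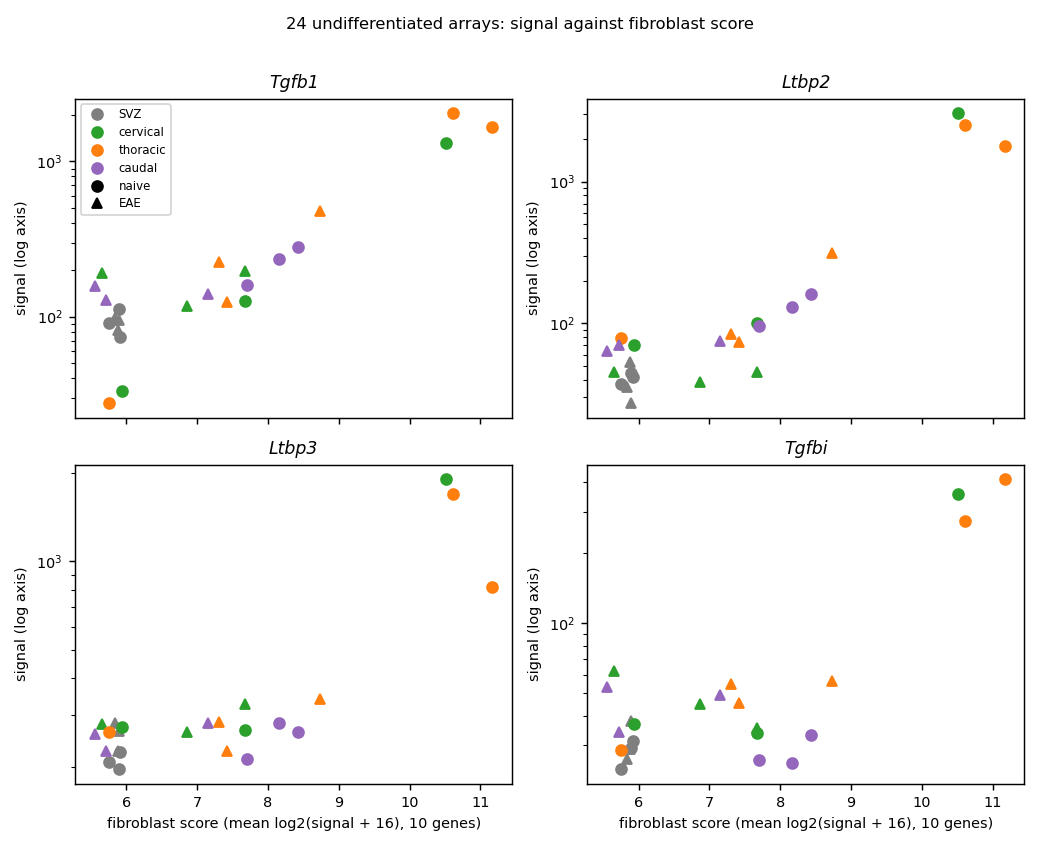
Signals (log axis) of Tgfb1, Ltbp2, Ltbp3 and Tgfbi on the 24 undifferentiated arrays against the fibroblast score, with colours for the region, circles for naive and triangles for EAE arrays. The 3 naive cord arrays with scores above 10 had the highest signals of all 4 genes.

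Ltbp3, a carrier of latent ligand that is prominent in bone, was above 50 on all 54 arrays. In undifferentiated SVZ cultures it was 208, 197 and 226 when naive and 266, 227 and 283 with EAE, without overlap, and the log2 difference of 0.28 ± 0.10 was not called. In cord cultures it stood out on the 3 fibroblast-rich arrays, with 1901 on the cervical array and 815 and 1698 on the thoracic ones. The other undifferentiated cord arrays had between 213 and 340. Differentiated caudal cultures had lower Ltbp3, with signals of 132, 159 and 98.8 when naive and 77.5, 62.5 and 114 with EAE. In differentiated SVZ cultures Ltbp3 was 505, 405 and 301 when naive and 541, 465 and 503 with EAE, above the undifferentiated SVZ arrays of the same disease state.

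Ltbp4, which binds latent ligand and takes part in elastic fibre assembly, was higher with EAE in undifferentiated cord cultures. In caudal cultures its signals were 117, 105 and 85.2 when naive and 393, 459 and 446 with EAE, with no overlap, and the log2 difference of 1.93 ± 0.15 was called. The authors' deposited table gave a ratio of 4.23 for Ltbp4 in this comparison and of 0.287 for Ltbp1. In cervical cultures Ltbp4 was 272, 440 and 74 when naive and 381, 493 and 602 with EAE. In thoracic cultures it was 89.1, 424 and 59.3 when naive and 255, 396 and 478 with EAE. Here the groups overlapped, the naive arrays with high fibroblast scores were the low ones, and the differences of 1.13 ± 0.59 and 1.33 ± 0.65 were not called. Undifferentiated SVZ cultures had 92.8, 96.2 and 96.2 when naive and 109, 111 and 93 with EAE, a difference of 0.11 ± 0.09.

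After differentiation the group means of Ltbp4 in cord cultures were lower with EAE. Cervical signals were 75.9, 50.1 and 59.1 when naive and 52.4, 39.5 and 36.5 with EAE. Thoracic signals were 71.3, 71.3 and 59.9 when naive and 53.6, 33.2 and 25.2 with EAE. Caudal signals were 59.3, 50.5 and 56.4 when naive and 41.8, 25.2 and 43.5 with EAE. The thoracic and the caudal arrays did not overlap, and none of these differences was called. In differentiated SVZ cultures Ltbp4 was 301, 257 and 286 when naive and 289, 299 and 302 with EAE, above the undifferentiated SVZ arrays of either disease state.

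**Figure D3:**
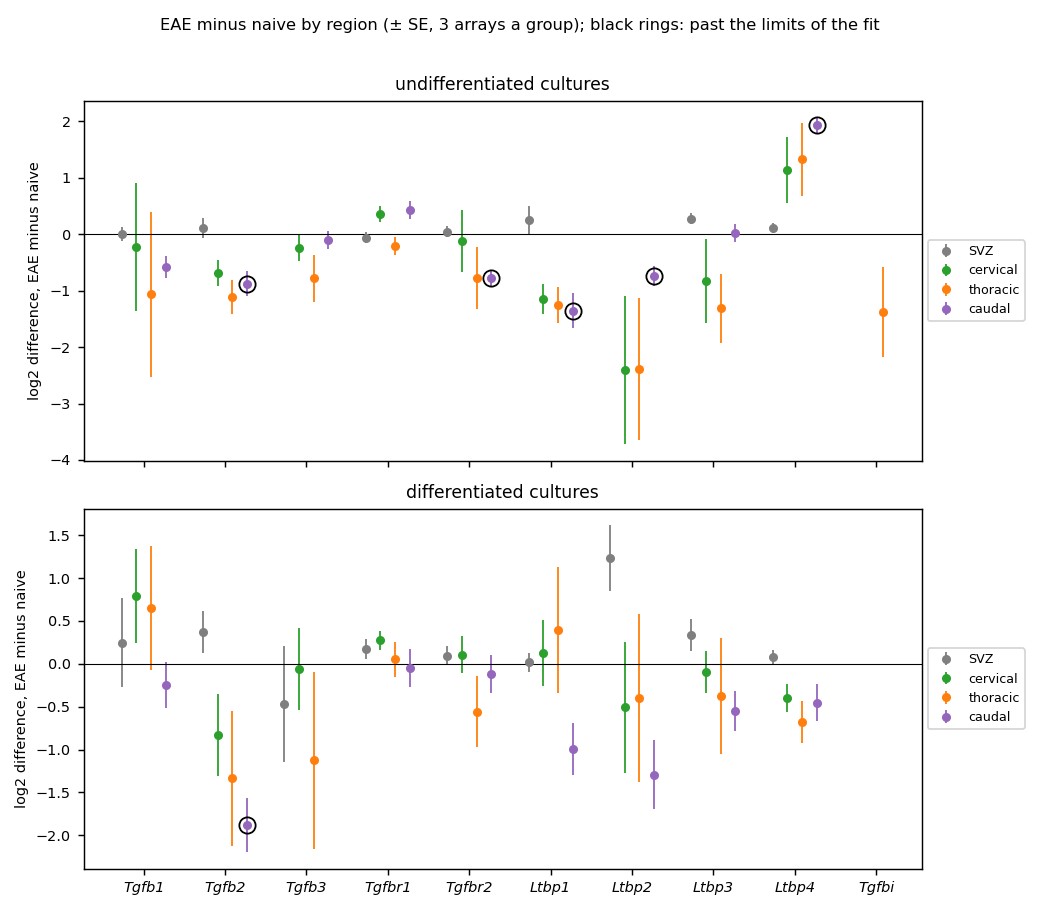
Log2 differences between EAE and naive cultures of each gene by region, with standard errors (3 arrays a group), in undifferentiated cultures above and differentiated cultures below, with black rings around called differences and no point where a gene was not tested. Ltbp4 was higher and Ltbp1 and Tgfb2 were lower in the 3 undifferentiated cord segments, and 5 of the 6 rings belong to undifferentiated caudal cultures.

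Tgfbr1, the type I receptor kinase, had the narrowest range of group means among the 10, from 291 ± 34 (SD, n = 3) in naive SVZ biopsies to 713 ± 60.8 in undifferentiated cervical EAE cultures. In undifferentiated caudal cultures it was 452, 416 and 581 when naive and 653, 698 and 607 with EAE. In cervical cultures it was 572, 525 and 554 when naive and 653, 711 and 775 with EAE. Neither pair of groups overlapped, and the log2 differences of 0.43 ± 0.16 and 0.36 ± 0.14 were not called, the caudal one being called after quantile normalization, after 75th percentile scaling and with all 18 groups in the fit. In biopsies Tgfbr1 was 294, 324 and 256 when naive and 328, 366 and 369 with EAE, also without overlap and not called. Tgfbr2, the type II receptor that binds ligand first, was 350, 292 and 288 in undifferentiated caudal naive cultures and 157, 188 and 176 with EAE, a called difference of -0.78 ± 0.14. In thoracic cultures it was 569, 141 and 616 when naive and 157, 284 and 205 with EAE, and these overlapped. Tgfbr2 was lowest in differentiated SVZ cultures, with 94.3, 74.5 and 93.5 when naive and 99, 85.2 and 98.3 with EAE.

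Tgfbi, a matrix protein named for its induction by TGF-beta, was above 50 on 14 of the 54 arrays. Its highest signals were 413 and 273 on the fibroblast-rich thoracic arrays and 358 on the cervical one. The other undifferentiated naive cord arrays had between 25.2 and 36.9. In undifferentiated caudal cultures Tgfbi was 25.9, 25.2 and 33 when naive and 53.4, 34 and 49.2 with EAE, without overlap, but too few arrays were above 50 for it to be tested. SVZ biopsies had between 45.5 and 63.4.

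Between EAE and naive cultures of a single region, most calls among the 10 genes were in undifferentiated caudal cultures. There limma called 5 of 9 tested members, Ltbp4 higher and Tgfb2, Tgfbr2, Ltbp1 and Ltbp2 lower, against 17.2% of 17590 probe sets tested. Because these signals also led to the choice of genes, nothing is read from that count. The median log2 difference was -0.58 over the 9 members and -0.14 over all tested probe sets. Ltbp4 and Tgfbr2 were called whichever 1 of the 6 arrays was left out, whereas without EAE replicate 1 only these 2 remained called. Tgfb2 was also not called without EAE replicate 3 or naive replicate 1, and Ltbp2 not without naive replicate 2 or naive replicate 3. Without any 1 of the naive replicates Ltbp1 had too few arrays above 50 to be tested. Only Ltbp4 was called by the methods' t-test, and Ltbp4 and Tgfbr1 were called with all 18 groups in the fit. The fibroblast scores were 7.70 to 8.43 on the naive and 5.56 to 7.16 on the EAE caudal arrays, and the summed microglia signals were 180 to 369 and 5060 to 6704.

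In undifferentiated SVZ, cervical and thoracic cultures limma called 0 members and 0% of probe sets. At an unadjusted p under 0.05 limma had 1976, 1865 and 1115 probe sets. With the methods' t-test, after adjustment, the count of probe sets called was 0 in all 3. The limma count of 0 in thoracic cultures rested on naive replicate 2, the 1 thoracic naive array with a low fibroblast score. Without it 8 of 9 tested members were called, Ltbp4 higher and the other 7 lower, against 12% of 17403 probe sets. Tgfb1 then differed by -2.87 ± 0.44, Ltbp2 by -3.88 ± 0.50 and Ltbp4 by 2.10 ± 0.28 on the log2 scale. The naive arrays left in that fit both had high fibroblast scores, and the part of this in these differences was not tested. Averaged over the 4 regions, Ltbp4 at 1.13 ± 0.26, Ltbp1 at -0.87 ± 0.18 and Tgfb2 at -0.64 ± 0.14 were called, 3 of 10, against 6.23% of probe sets. The average called no member without replicate 1 of every group or without replicate 3, against 0.769% and 0.664% of probe sets, and 6 without replicate 2, against 8.84%. In the difference between the cord and SVZ effects of EAE 0 members and 0.233% of probe sets were called, with 1739 probe sets at an unadjusted p under 0.05. The genes were chosen on these signals, so nothing is read from the counts of members called in any of these fits.

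Differentiated cultures gave few calls between EAE and naive. In caudal cultures 1 of 8 tested members was called, Tgfb2, against 0.89% of probe sets. In cervical cultures 0 members and 0.133% of probe sets were called, and in SVZ and thoracic cultures 0 members and 0%, with 688, 3242 and 1044 probe sets at an unadjusted p under 0.05. Without SVZ naive replicate 3, Tgfb1, Tgfb3 and Ltbp2 were called, against 6.82% of probe sets in that fit. Without thoracic naive replicate 2, Tgfb2 and Tgfb3 were called, against 1.22%. In the mean over regions 0 members and 0.779% of probe sets were called, and in the biopsies 0 members and 0.0151%, with 2867 and 743 probe sets at an unadjusted p under 0.05. The methods' t-test, run for single regions and adjusted as the fits were, called 0 members in these comparisons. Here too the genes were chosen on these signals, so nothing is read from the counts of members called.

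Differentiated cultures were compared with undifferentiated ones in the mean over 4 regions. Among naive cultures Ltbp1 was called lower after differentiation at -0.90 ± 0.29, 1 of 10 members against 33.5% of probe sets. This call was lost under both scalings and without replicate 2 or replicate 3 of every group. With the replicate number as a block, Ltbp1 and Ltbp3 were called, 2 of 10 against 33%. Same-numbered arrays of the 2 stages deviated together in thoracic naive cultures, with correlations from 0.218 to 0.574, and not in the naive cultures of the other 3 regions. Between differentiated and undifferentiated EAE cultures 4 of 10 were called against 52.1%. These were Ltbp4 at -1.92 ± 0.10, Ltbp3 at -0.60 ± 0.09 and Tgfbi at -0.28 ± 0.08, which were lower after differentiation. Ltbp2 at 1.08 ± 0.21 was higher. The Tgfbi call was lost after 75th percentile scaling, in the 18-group fit and without replicate 1, and without replicate 2 it was not tested. Shares near or under the background are no result about these genes. Differences within single regions were not tested. Ltbp4 differed by 1.38 in SVZ EAE cultures and by -3.10 in cervical, -2.87 in thoracic and -3.10 in caudal EAE cultures, with no overlap in any of the 4. Tgfb2 differed by 2.08 in SVZ EAE cultures and by -1.04 in cervical and -1.54 in caudal EAE cultures, again without overlap, and by 0.04 in thoracic ones. Ltbp1 differed by -2.90 in SVZ EAE cultures and by 1.51 in thoracic EAE cultures. The log2 difference of Ltbp4 between stages was more negative in EAE than in naive cultures, with -1.49 ± 0.28 for EAE minus naive, the 1 of 10 members called in that difference against 4.2% of probe sets. Without replicate 1 of every group, and without replicate 3, it was not called, while the value was -1.63 and -1.08.

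**Figure D4:**
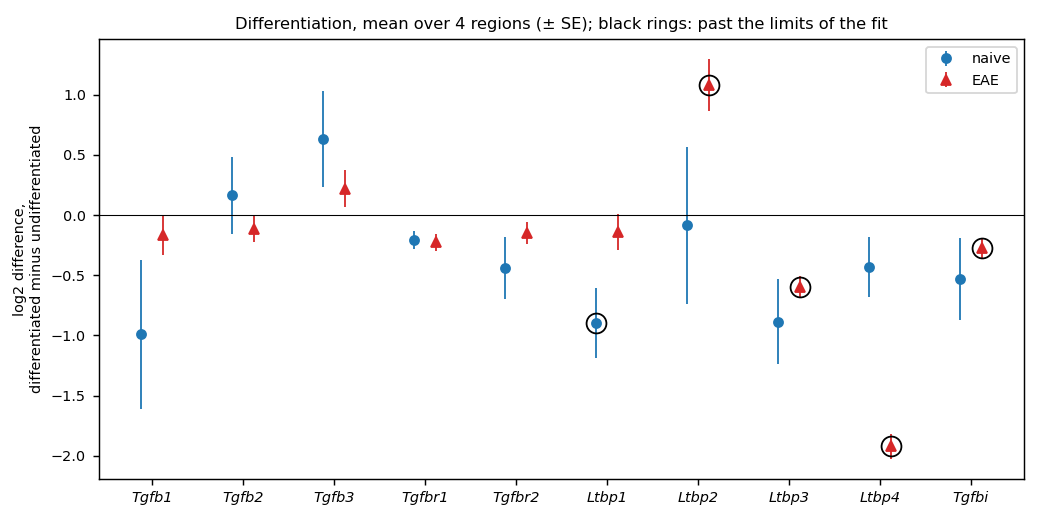
Log2 differences between differentiated and undifferentiated cultures, averaged over the 4 regions, with standard errors, for naive (circles) and EAE (triangles) cultures, and black rings around called differences. Ltbp4 had -0.43 ± 0.25 in naive and -1.92 ± 0.10 in EAE cultures.

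Naive cord and SVZ cultures were compared at each stage. These signals also led to the choice of genes, so nothing is read from the counts called. Undifferentiated cord cultures had less Ltbp1, -2.19 ± 0.33, and more Tgfb3, 0.91 ± 0.29. These 2 of 10 were called against 22.9% of probe sets, a share under the background. Only Ltbp1 was called without replicate 1 or replicate 3 of every group, without the filter or under either scaling. Tgfb3 was below 50 in the SVZ cultures, with a mean of 38.6, and passed the filter through cord arrays. Its cord means were 73.3 in cervical, 159 in thoracic and 63 in caudal cultures. Differentiated cord cultures had less Ltbp4, -1.95 ± 0.13, and less Tgfb2, -2.05 ± 0.65, with more Tgfbr2, 1.32 ± 0.29, and more Tgfbr1, 0.41 ± 0.13. These 4 of 9 were called against 22.5%, while only Ltbp4 was called without replicate 1 and only Tgfbr2 and Ltbp4 without replicate 2. The Tgfb2 call was also lost without replicate 3, with log2(signal + 1), without the filter and after 75th percentile scaling. Naive SVZ biopsies differed from undifferentiated naive SVZ cultures by -3.21 ± 0.16 for Ltbp1, -0.73 ± 0.11 for Tgfbr1, -0.57 ± 0.10 for Tgfbr2, -0.35 ± 0.11 for Ltbp3, -0.30 ± 0.13 for Tgfb2 and 0.36 ± 0.11 for Ltbp2. That made 6 of 8 members called against 76.9% of probe sets, so the count is under the background. Without biopsy replicate 3, 3 of these were called, Tgfbr1, Tgfbr2 and Ltbp1, and without any 1 of the culture arrays Ltbp1 had too few arrays above 50 to be tested. Markers of other cell types differed as well, with summed microglia signals of 3805 to 4298 in naive biopsies and 153 to 163 in naive undifferentiated SVZ cultures, and Nes, an intermediate filament of progenitors, at 28.4 to 31.6 against 1645 to 1716.

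Other genes of the pathway were taken from 6 lists of known partners, and these genes were tested. The lists and tests were chosen with earlier results of these data known, so their counts and adjusted p-values are no independent support. In undifferentiated caudal EAE cultures 11 of 16 tested genes on the list of latent TGF-beta activators and matrix partners fell and 1 rose. Over all tested probe sets 13.9% fell and 3.32% rose. Fibronectin (Fn1), to which latent complexes are attached, fell by 2.63 ± 0.41 on the log2 scale with an adjusted p of 0.00184. Fibrillin-1 (Fbn1), the microfibril protein that LTBPs bind, fell by 2.29 ± 0.38 (adjusted p = 0.00249). Plau, the urokinase that starts the plasmin cascade, rose by 1.55 ± 0.24 (adjusted p = 0.00197). All 3 tested extracellular inhibitors fell. Their log2 differences were -3.86 ± 0.23 for asporin (Aspn, adjusted p = 6.16e-06), -3.56 ± 0.77 for decorin (Dcn, adjusted p = 0.0103) and -1.71 ± 0.35 for biglycan (Bgn, adjusted p = 0.00857). Of 16 target genes 8 fell and 1 rose. Ccn2, or connective tissue growth factor, fell by 2.37 ± 0.22 (adjusted p = 7.6e-05), while Vegfa rose by 2.94 ± 0.23 (adjusted p = 3.27e-05). The inhibitory Smad7 fell by 0.88 ± 0.16 (adjusted p = 0.00417), as did 4 of 17 probe sets for Smads and intracellular regulators in all. Median log2 differences were -0.70 for the activators and matrix partners and -0.67 for the targets, against -0.14 over all tested probe sets. Of the fibroblast markers 7 of 8 fell in the same comparison and all 14 microglia markers rose. Vegfa kept its call in all alternatives tried, while Fn1 and Fbn1 lost theirs by the methods' t-test and with all 18 groups in the fit, and Dcn and Bgn also without EAE replicate 1. Plau and Smad7 lost theirs by the methods' t-test only, and Ccn2 and Aspn in the 18-group fit only.

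Nrros, which tethers latent TGF-beta on microglia and macrophages, rose with EAE in the mean of undifferentiated regions by 0.87 ± 0.09 (adjusted p = 8.82e-06) and of differentiated regions by 0.66 ± 0.15 (adjusted p = 0.0458). In undifferentiated cultures the EAE difference of Nrros was higher in cord than in SVZ by 1.32 ± 0.21 (adjusted p = 0.00525). All 14 microglia markers rose in both means, and for 13 the undifferentiated EAE difference was higher in cord than in SVZ. Neither Nrros nor any of these markers had enough arrays above 50 to be tested in undifferentiated SVZ cultures alone. Nrros, and markers such as Aif1 and Csf1r, also had too few for the fit of naive cultures of both stages. They entered the fits above through EAE arrays, so the sizes of their rises from low signals are imprecise. Their adjusted p-values are given only as a description. Lrrc32, the tether on regulatory T cells and platelets, fell in the undifferentiated mean by 0.67 ± 0.18 (adjusted p = 0.0326), a call lost after quantile normalization and without replicate 1 or replicate 3. The Nrros call in differentiated cultures was lost without the filter and without replicate 1. In differentiated caudal EAE cultures 3 of 16 targets fell, against 0.557% of probe sets, Ccn2 at -2.71 ± 0.45, Ccn1 at -2.18 ± 0.47 and the smooth muscle gene Tagln at -2.02 ± 0.48, with adjusted p of 0.00585, 0.0248 and 0.0478. These 3 calls were lost under both scalings, with log2(signal + 1), without the filter, by the methods' t-test, in the 18-group fit and without EAE replicate 2.

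**Figure D5:**
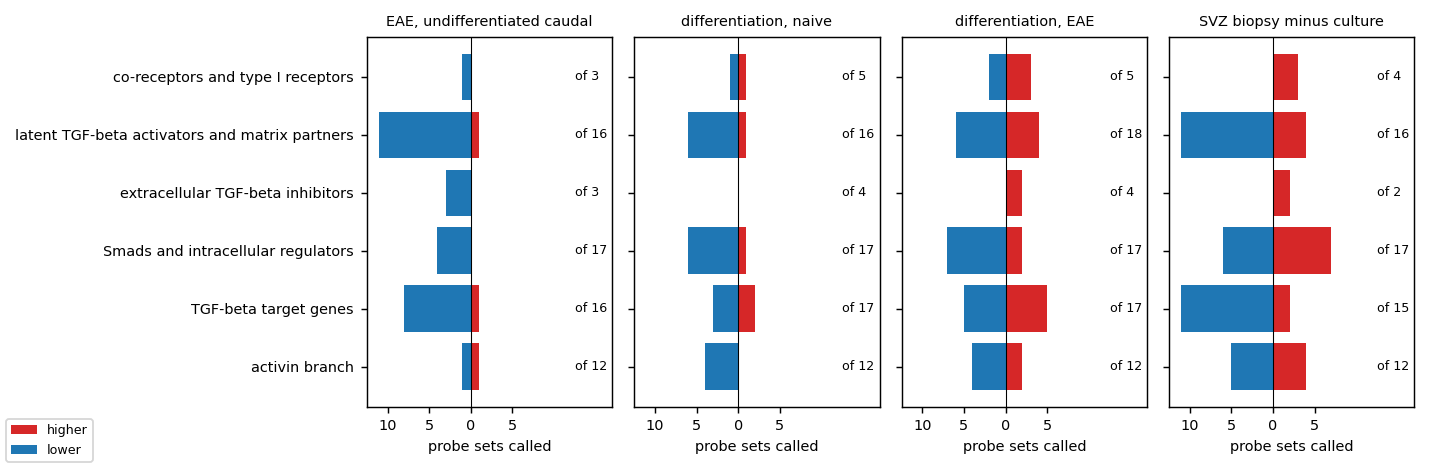
Probe sets of the 6 pathway lists called higher (red, to the right) or lower (blue, to the left) in 4 comparisons, with the number tested at the right of each bar. In undifferentiated caudal EAE cultures 11 of 16 activators and matrix partners and 8 of 16 target genes were lower, against 13.9% of all tested probe sets, while 33.5% of all probe sets in naive differentiation, 52.1% in EAE differentiation and 76.9% in the biopsy comparison were called in either direction.

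During differentiation the receptor-regulated Smad2 fell in naive cultures by 0.95 ± 0.13 (adjusted p = 1.98e-05) and fell by 1.24 ± 0.07 in EAE cultures (adjusted p = 9.22e-13). Smad7 rose by 0.66 ± 0.17 (adjusted p = 0.00477) and 0.88 ± 0.08 (adjusted p = 2.18e-09). Of 17 probe sets for Smads and intracellular regulators 6 fell and 1 rose in naive cultures, and 7 fell and 2 rose in EAE cultures. Over all tested probe sets 26.8% fell and 6.64% rose in naive cultures, and 34.1% fell and 18.1% rose in EAE cultures. The counts of this list are near the background in both, so nothing is read from them. The gelatinase Mmp2 fell by 2.54 ± 0.37 (adjusted p = 5.39e-05) in naive cultures and fell by 2.50 ± 0.20 (adjusted p = 2.78e-10) in EAE cultures, and Tagln rose by 2.44 ± 0.54 (adjusted p = 0.00201) and 2.12 ± 0.28 (adjusted p = 7.93e-07). Ccn2 rose by 2.20 ± 0.33 in EAE cultures (adjusted p = 3.91e-06). In naive cultures its difference of 1.55 ± 0.77 had the same direction and was not called (adjusted p = 0.121). Of 10 fibroblast markers 1 rose in naive cultures, and 5 rose and 1 fell in EAE cultures, a movement whose part in these differences was not tested. In naive cord cultures compared with SVZ, Smad7 was higher by 1.72 ± 0.17 (adjusted p = 8.71e-05) when undifferentiated and by 1.80 ± 0.33 (adjusted p = 0.00268) when differentiated, and Plau was lower, at -3.14 ± 0.28 (adjusted p = 4.44e-05) and -1.62 ± 0.31 (adjusted p = 0.00333). Tgfbr3, the co-receptor betaglycan, was higher at both stages, by 2.87 ± 0.56 (adjusted p = 0.0052) and 1.78 ± 0.30 (adjusted p = 0.00161). All 9 oligodendrocyte probe sets were higher in cord at both stages. The Smad7 call in naive differentiation and the Smad7, Plau and Tgfbr3 calls in differentiated cord were lost without replicate 1 or replicate 2 of every group, and the Tgfbr3 call in undifferentiated cord without replicate 1. Naive SVZ biopsies had 11 of 15 target genes lower and 2 higher than cultures, against 43.7% of all tested probe sets lower and 33.2% higher. Ccn1 was lower by a log2 difference of -6.22 ± 0.14 (adjusted p = 4.73e-13).

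The probe sets most like each member were ranked by Pearson correlation over the 18 group means among 16384 probe sets, as a description. Ltbp4 was closest to Emp2 (r = 0.964) and Ltbp3 to Ppp1r18 (0.948), with the transcriptional repressor Tgif1 next (0.934). Ltbp1 was closest to Btn2a2 (0.943), Tgfb2 to Rras (0.941), Tgfbr2 to Fam13a (0.930) and Tgfbr1 to Rad51b (0.927). Ltbp2 was closest to Ahnak2 (0.938) and to the collagen gene Col5a1 (0.937), and Tgfb1 to Col6a3 (0.923), a collagen gene that is also on the fibroblast list. Tgfbi was closest to Tnfsf11 (0.909) and Tgfb3 to Osmr (0.869). Among the members themselves the highest correlations were 0.744 between Tgfb1 and Tgfbr2 and 0.731 between Tgfb2 and Ltbp3.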

How the data were processed

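All 54 arrays have 1 linear intensity per probe set, deposited by the authors. Per the file headers, PLIER was run with a background correction by GC content, and arrays were brought to a common median. This fixes the centre of each array, so a shift of most genes would not show. Per the submitters' processing notes, Affymetrix Expression Console was used. No label or header used here names the array type, the genome build or its annotation. In their table the authors also deposited an unadjusted p-value, a ratio of group means and a signed fold change, of which 2 ratios are quoted.

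Of 27342 main probe sets, 19852 had 1 gene symbol. The RefSeq table of GRCr8 held 18580 of these by gene identifier and supplied current symbols and promoter sequences, and all 10 members matched. The values analysed were log2(signal + 16), which understates the change of dim genes. Only probe sets exceeding 50 on 3 or more arrays of a fit entered it. Fits used limma 3.58.1 in R 4.3.3 (two-sided) and Benjamini-Hochberg adjustment over everything tested. Calls needed an adjusted p no higher than 0.05 together with a change of 1.2-fold or more, following the series' design text. Single comparisons used their own 6 arrays, and contrasts over regions used all groups concerned. Differences by region during differentiation are untested differences of mean log2 values.

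The members, gene lists and tests were chosen with earlier results of these data known. Genes were named by a rule that took all members, up to 3 called rises and 3 called falls of each list and comparison, and some marker genes, of which the text gives a subset. Alternatives were a pseudocount of 1, no filter, quantile normalization, scaling to the 75th percentile, a joint fit of the 18 groups, a replicate block, leaving out replicates and the methods' t-test. Leaving out the arrays least like their groups was chosen after seeing the data. The fit was tested on simulated data.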

Additional observations from a re-analysis of the deposited data

Results flagged for a closer look

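Averaged over the 4 regions, the differentiation effect of Ltbp4 differed between EAE and naive cultures by -1.49 ± 0.28 (SE) on the log2 scale. The difference itself was a contrast in the fit. It equals the EAE difference in differentiated cultures minus that in undifferentiated cultures. It is therefore not separate from the undifferentiated EAE difference of Ltbp4 given above, which rests on the same arrays. The mean effect was -1.92 ± 0.10 in EAE and -0.43 ± 0.25 in naive cultures. In SVZ cultures the group mean of Ltbp4 rose with differentiation from 95.1 to 281 when naive and from 104 to 297 with EAE. The difference passed the limits of the fit with all arrays, as 4.2% of probe sets did. It was not called without replicate 1 of every group or without replicate 3. Undifferentiated naive cord arrays with high fibroblast scores had low Ltbp4 signals, 74 on cervical replicate 3 and 89.1 and 59.3 on thoracic replicates 1 and 3. Undifferentiated caudal naive cultures, with lower fibroblast scores, also had a low mean, 102. Across the 18 group means the Pearson correlation of Ltbp4 with the fibroblast score was -0.234. The part of fibroblast content in the difference was not tested.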

How the results depend on the processing

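No log2 difference of a called member changed sign under the alternatives tried. The count of members called moved as follows. For EAE against naive in undifferentiated caudal cultures, where 5 were called, it was 2 with all 18 groups in 1 fit, 1 by the methods' t-test and 2 to 5 when 1 array was left out. In undifferentiated thoracic cultures it was 0 to 8 when 1 array was left out and 8 once the arrays least like their groups were left out. In differentiated cultures it was 0 to 3 in SVZ and 0 to 2 in thoracic cultures when 1 array was left out, and 3 in SVZ without the least like arrays. In differentiated caudal cultures, where 1 was called, it was 0 with log2(signal + 1), no filter, quantile normalization, 75th percentile scaling, 18 groups in 1 fit or the methods' t-test, 3 with a replicate block and 0 to 2 when 1 array was left out. The mean over undifferentiated regions called 0 to 6 without a replicate and 9 without the least like arrays, against 3. The mean over differentiated regions called 1 with either scaling or 18 groups, against 0. The difference of EAE effects between cord and SVZ called 4 without the least like arrays, against 0. For differentiation of naive cultures, with 1 called, it was 0 with either scaling, 2 with 18 groups, 2 with the replicate block, 5 without the least like arrays and 0 to 1 without a replicate. For EAE cultures, with 4 called, it was 2 with 18 groups and 4 to 5 without a replicate. The difference between the differentiation effects, with 1 called, gave 5 without the least like arrays and 0 to 1 without a replicate. Cord against SVZ gave 1 in undifferentiated naive cultures without the filter or with either scaling, 4 with 18 groups, 7 without the least like arrays and 1 to 2 without a replicate, against 2. In differentiated naive cultures it gave 1 to 4 without a replicate, against 4. Biopsy against culture, with 6 called, gave 2 with 18 groups and 3 to 5 when 1 array was left out. Part of the losses on leaving out an array came from the filter, since a member with fewer than 3 arrays above 50 was not tested. The cause of the other movements was not tested. Calls over all probe sets also became more frequent without the least like arrays. Their share was 12% in undifferentiated thoracic and 6.82% in differentiated SVZ cultures, 17.4% in the undifferentiated mean, 3.49% in the cord and SVZ difference, 43.5% in naive differentiation, 17.4% in the difference of differentiation effects and 41.6% in undifferentiated cord against SVZ. The members were chosen on these signals, so nothing is read from their higher counts.

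The arrays least like their group were undifferentiated cervical naive replicate 3 and thoracic naive replicate 2, and differentiated SVZ naive replicate 3, cervical naive replicate 1 and thoracic naive replicate 3. Same-numbered arrays deviated together in every pair (correlation over 0.1) in 2 of the 24 group pairs checked, undifferentiated with differentiated thoracic naive cultures and differentiated caudal with SVZ naive cultures, so the numbers were not taken to pair the samples in general. With the replicate block Tgfbr1 lost its call in differentiated cord against SVZ, where 3 of 9 members stayed called, against 21.1% of probe sets. Quantile normalization moved the median of all tested probe sets in undifferentiated caudal cultures from -0.14 to 0.02. Among the other pathway values 804 kept their call and 141 lost it. Signals near the limit of 50, as for Tgfbi and for Ltbp1 in EAE cord cultures, give imprecise log2 differences.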
